A study of Mus musculus with 9 samples.

Results

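The apelin receptor gene Aplnr and the genes of both its peptide ligands, Apln and Apela, were described in heart cells of newborn mice whose mothers ate diets of different fat content in pregnancy. The 3 genes were chosen by symbol from a table of 18738 genes, and all 3 passed the filter on low values, a mean over the libraries of 1 or more TPM (a gene's share of all transcripts in a library, adjusted for transcript length), which left 13655 genes for testing. They were chosen with their values in these libraries in view, so their levels and differences are given as a description with no test. Cardiomyocytes were isolated at birth (P0) from wild-type (WT) C57BL/6J pups. The dams were assigned at random to 1 of 3 diets, called high-fat (HFD), slight high-fat (sHFD) and normal (ND), and ate it between fertilization and delivery. Each diet has 3 libraries of bulk RNA-seq, and the study set out to look for transcriptional pathways behind poor cardiomyocyte proliferation in hearts of the HFD group. Nothing in the labels says that libraries of 1 diet came from separate litters or pups, so p-values reflect only how much these libraries vary, which can be technical in part or in full.

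The apelin receptor is a G protein-coupled receptor of the cell surface that couples to inhibitory G proteins and recruits β-arrestins. In the heart it is best known from endothelial cells, including the venous and progenitor endothelium that forms coronary vessels, and apelin signalling raises cardiac contractility and nitric oxide release. Apelin, encoded by Apln, is cut from a longer precursor and is known as a product of endothelial tip cells and of cells short of oxygen. ELABELA (also called Toddler), encoded by Apela, is the ligand that acts first in the embryo, and in the developing mouse heart it has been placed in the epicardium, the outer cell layer.

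In GRCm38 with the GENCODE annotation, Aplnr (Entrez 23796) lies at chr2:85136225-85139923 on the plus strand as a single exon with 1131 coding bases. Apln (Entrez 30878) lies at chrX:48025146-48034853 on the minus strand, with 3 exons and 231 coding bases. Apela (Entrez 100038489) lies at chr8:65028417-65037336 on the minus strand, with 162 coding bases and 2 annotated transcripts. The processed transcript Gm45886 overlaps Apela on the same strand at chr8:65014856-65037096, and how the authors' counting split reads between them is not given in the sources used here, so Apela levels are uncertain to that extent. The RefSeq table of GRCm38.p6 holds a promoter for 2 of the 3 genes, Apln and Apela. The 250 bases before each start site are shown because the levels of these ligand genes differed between diets in opposite directions. They are written 5′ to 3′ on the gene's own strand, minus for both, and capitals mark the single match found, a GC box (GGGCGG).
Apln chrX:48034854-48035103: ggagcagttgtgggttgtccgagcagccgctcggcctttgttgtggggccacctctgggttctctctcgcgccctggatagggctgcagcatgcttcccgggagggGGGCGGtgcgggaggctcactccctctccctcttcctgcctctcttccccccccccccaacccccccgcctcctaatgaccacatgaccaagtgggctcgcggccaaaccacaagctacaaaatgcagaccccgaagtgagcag
Apela chr8:65037337-65037586: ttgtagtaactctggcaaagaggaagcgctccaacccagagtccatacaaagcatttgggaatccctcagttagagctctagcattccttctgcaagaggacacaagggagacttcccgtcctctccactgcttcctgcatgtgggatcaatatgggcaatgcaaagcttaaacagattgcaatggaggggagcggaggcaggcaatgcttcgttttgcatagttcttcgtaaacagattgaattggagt
The Apln promoter is rich in G and C, at 65.2% of its bases, whereas the Apela promoter has 48% and the median over 32851 RefSeq promoters of this length was 52.4%. Both strands were searched for 5 motifs, and the GC box, 144 bases before the Apln start site, was the only match in either window. It was present in 32.7% of all promoters. The other motifs were the core of hypoxia response elements (ACGTG, in 16.6% of all promoters), the CACCC box (CCACCC, 28.1%), a SOX core (AACAAT, 9.42%) and the TATA box (TATAAA, 12.4%). A missing match says only that these letters are not in this window.

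Each library lists between 16722 and 17105 genes above 0, and TPM keeps no read number, so depth is unknown. The libraries carry RNA of several cell types beside cardiomyocytes. Summed over 12 endothelial markers the level was 4154 to 4792 TPM in HFD, 3918 to 4408 TPM in sHFD and 3919 to 5850 TPM in ND libraries, and 10 cardiomyocyte markers summed to 38182 to 54781, 48285 to 60682 and 32686 to 50828 TPM in the same order. ND replicate 1 stood apart from its group: its mean correlation of log2(TPM + 1) over the genes tested was 0.980 with the HFD libraries and 0.962 with the other ND libraries. Its mean level of 12 immediate-early and heat-shock genes, which respond to cell isolation and stress, was 9.31 on the log2(TPM + 1) scale. That lies within the 8.78 to 9.48 of HFD libraries and above the 6.84 and 8.37 of the other ND libraries. The sHFD libraries had 6.98 to 7.16. ND replicate 2, at 6.84, lay near these. Its highest correlation was 0.990, with sHFD replicate 2, and its mean correlation with the other ND libraries was 0.965.

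Aplnr was the most abundant of the 3 genes in every library, at a mean of 153.7 TPM over all 9, and it was lower in HFD than in both other diets. Its level was 75.76, 78.05 and 71.67 TPM in HFD libraries 1 to 3, against 182.25, 206.36 and 205.17 TPM in ND libraries. The sHFD libraries had 204.61, 185.62 and 173.76 TPM. Every HFD library lay below every library of the other diets, and the sHFD and ND ranges overlapped. The mean was 75.2 ± 3.23 TPM in HFD, 188 ± 15.6 TPM in sHFD and 198 ± 13.6 TPM in ND (SD, n = 3 each). This is 2.63-fold lower in HFD than in ND and 2.50-fold lower in HFD than in sHFD, while sHFD stood at 0.950 times ND. On the log2(TPM + 1) scale the difference was -1.38 between HFD and ND, where the pooled within-diet SD was 0.083, and -1.31 between HFD and sHFD (SD 0.094). Between sHFD and ND it was -0.07, within the SD of 0.11.

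The rank of Aplnr among the tested genes was also lower in HFD. It stood above 78.3% to 82.5% of the tested genes in HFD libraries, against 93.1% to 94.4% in ND libraries and 93.2% to 94.5% in sHFD libraries. Of all tested genes, 0.798% had a lower log2 difference between HFD and ND than Aplnr, and 3.73% had one between HFD and sHFD. ND replicate 1, which resembled the HFD libraries in its immediate-early genes, had 182.25 TPM of Aplnr, the lowest of the ND libraries and more than any HFD library. The 3 comparisons share libraries in pairs: ND serves both high-fat diets as control, and HFD stands in both of its comparisons.

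Libraries that do not overlap between diets were common, so the separation of Aplnr has to be read against the background. Between HFD and ND, 27.9% of the 13655 genes had no overlap, 22.9% with HFD below and 5% with HFD above. Between HFD and sHFD the share was 51.3%, with 34.7% below and 16.6% above, and between sHFD and ND it was 9.4%, with 4.9% below and 4.5% above. The median log2 difference of all genes tested was -0.14 between HFD and ND and -0.16 between HFD and sHFD, and 0.00 between sHFD and ND. Relative to that median, Aplnr differed by -1.25 between HFD and ND and by -1.15 between HFD and sHFD.

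**Figure D1:**
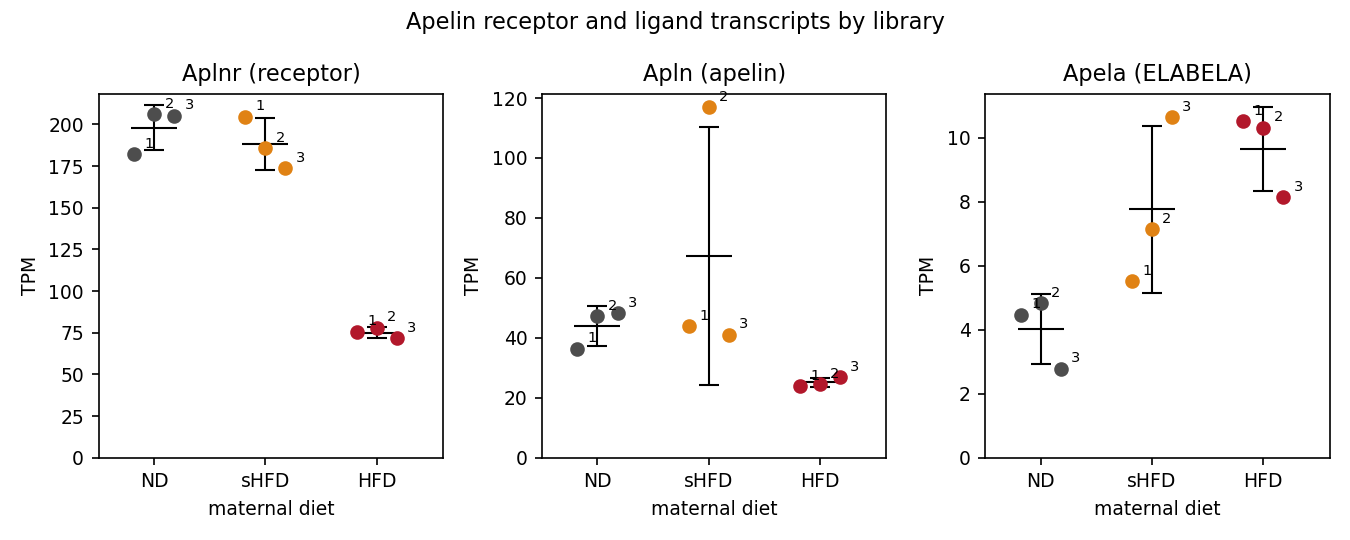
Level of the receptor gene Aplnr and the ligand genes Apln and Apela in TPM (vertical axes, linear, starting at 0) in each library, by maternal diet in order of fat content. Points are libraries with their replicate numbers and bars are the mean ± SD of 3 libraries. Aplnr and Apln lie lowest in HFD (75.2 and 25.2 TPM on average), sHFD replicate 2 stands out for Apln at 116.85 TPM, and Apela is lowest in ND at 4.04 TPM.

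Apln, the apelin gene, was lower in HFD than in both other diets too, and 1 sHFD library carried an unusually high level. It had 23.95, 24.66 and 26.86 TPM in HFD libraries, against 36.43, 47.29 and 48.27 TPM in ND libraries. The sHFD libraries had 43.81, 116.85 and 41.06 TPM. All HFD libraries lay below all others, ND replicate 1 was the lowest of the rest, and sHFD overlapped ND. The mean was 25.2 ± 1.52 TPM in HFD, 67.2 ± 43.0 TPM in sHFD and 44.0 ± 6.57 TPM in ND (SD, n = 3 each), 1.75-fold lower in HFD than in ND. The log2(TPM + 1) difference was -0.77 between HFD and ND (pooled SD 0.17) and -1.21 between HFD and sHFD (SD 0.59). Relative to the median of all genes these differences were -0.64 and -1.05. Of all genes tested, 9.39% had a lower value between HFD and ND, so Apln stood less far from the other genes than Aplnr did. HFD lay below ND without overlap for 22.9% of all genes, and below sHFD for 34.7%.

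The mean of Apln in sHFD rests on replicate 2. There, its log2(TPM + 1) level was 1.44 above the mean of the other 2 sHFD libraries, and 11 of the 13655 genes tested had a larger excess in that library. Aplnr and Apela showed no such excess, at -0.02 and -0.10. Between sHFD and ND the difference of Apln was 0.44 with a pooled SD of 0.61, and without sHFD replicate 2 it was -0.04. Between HFD and sHFD it was -0.73 without that library.

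Apela was the least abundant of the 3 genes, and unlike the others it was higher in both high-fat diets than in ND. It had 10.52, 10.32 and 8.14 TPM in HFD libraries, against 4.48, 4.84 and 2.79 TPM in ND libraries. The sHFD libraries had 5.52, 7.14 and 10.64 TPM. All HFD and all sHFD libraries lay above all ND libraries, while HFD and sHFD overlapped. The mean was 9.66 ± 1.32 TPM in HFD, 7.77 ± 2.62 TPM in sHFD and 4.04 ± 1.09 TPM in ND (SD, n = 3 each). That is 2.39-fold higher in HFD than in ND and 1.92-fold higher in sHFD than in ND. On the log2(TPM + 1) scale the difference was 1.10 between HFD and ND (pooled SD 0.27), 0.78 between sHFD and ND (SD 0.38) and 0.32 between HFD and sHFD (SD 0.33).

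Among all tested genes, 99.5% had a lower log2 difference between HFD and ND than Apela, and 99.3% had one between sHFD and ND. HFD lay above ND without overlap for 5% of all genes, and sHFD above ND for 4.5%. Relative to the median of all genes, Apela differed by 1.24 between HFD and ND and by 0.78 between sHFD and ND. It ranked above 27.6% to 35.8% of tested genes in HFD libraries, above 19.8% to 30.3% in sHFD libraries and above 10.6% to 17.3% in ND libraries. At these levels the spread between libraries is wide, with a coefficient of variation of 13.7% in HFD, 33.7% in sHFD and 27.1% in ND, against 4.30%, 8.28% and 6.87% for Aplnr.

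The order of the 3 genes by TPM, which is scaled to transcript length, was Aplnr, Apln, Apela in every library, but the distances between them differed. The receptor's level was 3.00 ± 0.286 times that of Apln in HFD, 3.50 ± 1.67 times in sHFD and 4.54 ± 0.406 times in ND (SD, n = 3 each). Relative to Apela the receptor stood at 7.86 ± 0.841 times in HFD, 26.5 ± 10.4 times in sHFD and 52.3 ± 18.4 times in ND. In both ratios all HFD libraries lay below all ND libraries. Apln and Apela together reached 34.8 ± 0.300 TPM in HFD, 75.0 ± 42.4 TPM in sHFD and 48.0 ± 6.19 TPM in ND. Apela made up 30.5%, 29.5% and 23.3% of this ligand RNA in HFD libraries, against 11.0%, 9.28% and 5.46% in ND libraries. In sHFD libraries it made up 11.2%, 5.76% and 20.6%, which overlapped ND.

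**Figure D2:**
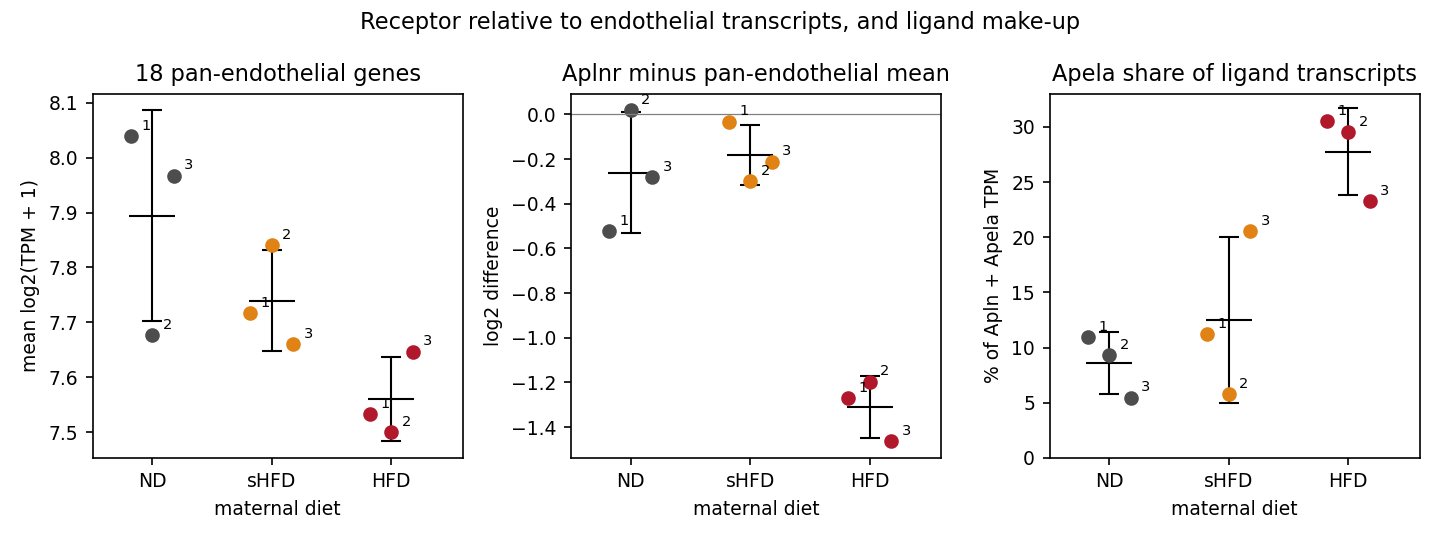
Mean log2(TPM + 1) of 18 pan-endothelial genes (left), Aplnr minus that mean (middle, log2) and Apela as a percentage of Apln + Apela TPM (right), by maternal diet in order of fat content. Points are libraries with replicate numbers and bars the mean ± SD of 3. Apela takes 27.8% of ligand TPM on average in HFD and 8.57% in ND, and Aplnr relative to pan-endothelial genes lies lowest in HFD.

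Because the receptor is a gene of endothelium, its level was set against 18 genes shared by all endothelium. Their mean log2(TPM + 1) was 7.56 ± 0.077 in HFD, 7.74 ± 0.092 in sHFD and 7.89 ± 0.19 in ND (SD, n = 3 each), a difference of -0.33 between HFD and ND. Aplnr minus this mean was -1.27, -1.20 and -1.46 in HFD libraries, against -0.52, 0.02 and -0.28 in ND libraries, and was -0.03, -0.30 and -0.21 in sHFD libraries. Every HFD library lay below all others, and the difference was -1.05 between HFD and ND, -1.13 between HFD and sHFD and 0.08 between sHFD and ND. Against 12 capillary genes it was -0.80 between HFD and ND and -0.76 between HFD and sHFD. For Apln the difference relative to the pan-endothelial mean was -0.44 between HFD and ND and -1.03 between HFD and sHFD. In bulk RNA, fewer cells of a type and less RNA per cell cannot be told apart.

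Single endothelial genes differed in direction and size. In HFD against ND, 3 of the 18 pan-endothelial genes fell and 0 rose at an adjusted p under 0.05 in limma (Benjamini-Hochberg over all genes), where 10.9% of all genes tested were called, 1.28% higher and 9.59% lower. The list's median log2 difference was -0.23, against -0.14 for all genes. The 3 were Sox18 and Erg, transcription factors of endothelium, and the adhesion molecule Icam2. Sox18 had 43.28, 36.52 and 37.71 TPM in HFD libraries and 70.41, 110.65 and 99.96 TPM in ND libraries, a log2 difference of -1.22 ± 0.21 (SE; adjusted p = 0.00938, limma). Icam2 had 74.63, 74.06 and 74.31 TPM in HFD libraries and 146.5, 113.4 and 168.2 TPM in ND libraries, a log2 difference of -0.91 ± 0.16 (SE; adjusted p = 0.00938, limma). Erg fell by 1.06 on the log2 scale (SE 0.22, adjusted p = 0.0148, limma). Log2 differences between HFD and ND were below 0 for 15 of the 18 genes and above 0 for 3. The junction genes Pecam1 and Cdh5, named after their values were seen, were among those above 0. They averaged 775.7 and 899 TPM in HFD and 763 and 815 TPM in ND, where replicate 1 was highest (946.64 and 1086.46 TPM). In HFD against sHFD, where 34.2% of genes were called (10.3% higher, 23.9% lower), 4 of the 18 fell and 0 rose.

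Calls between HFD and ND depended on single libraries. The 1484 genes called became 31 without HFD replicate 2, 39 without ND replicate 3, 127 without HFD replicate 1 and 3837 without ND replicate 1. Of 26 called list and marker genes followed through these fits, 2 (Aqp7 and Kcnj8) kept an adjusted p under 0.05 without HFD replicate 2, and the same 2 without ND replicate 3. The other adjusted p-values ran from 0.0607 to 0.198 without HFD replicate 2 and from 0.0591 to 0.169 without ND replicate 3, all with their direction kept. Of 41 genes followed in HFD against sHFD, 30 to 41 kept the call with 1 library left out.

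Endothelial subtypes were described by lists of their own, since the receptor marks venous and progenitor cells and apelin marks tip cells. Of 7 venous and progenitor genes tested, 1 fell between HFD and ND: Nrp2, a receptor of venous and lymphatic endothelium, by 0.64 on the log2 scale (SE 0.17, adjusted p = 0.0298, limma), where 9.59% of all genes were lower. In HFD against sHFD, 2 of the 7 rose and 2 fell, where 10.3% of all genes were higher and 23.9% lower. Lyve1, a hyaluronan receptor of lymphatic endothelium, rose by 0.84 (adjusted p = 0.0058, limma) and Nr2f2, a transcription factor of venous identity named after its value was seen, by 0.63 (adjusted p = 0.0362, limma). Flrt2 fell by 1.31 (adjusted p = 0.00829, limma) and Nrp2 by 0.50 (adjusted p = 0.0321, limma). Of 12 arterial genes 2 fell and 0 rose between HFD and ND. Gja5, a gap junction protein of arteries, had 21.76, 24 and 24.63 TPM in HFD libraries and 40.14, 162.04 and 103.34 TPM in ND libraries, a log2 difference of -1.86 (SE 0.38, adjusted p = 0.0142, limma). Gkn3, an arterial marker in the mouse, differed by -1.64 (SE 0.31, adjusted p = 0.0118, limma). Of 16 tip-cell genes 0 were called between HFD and ND in limma, and 5 had an unadjusted p under 0.05. Of 6 endocardial genes 0 were called, and 1 had an unadjusted p under 0.05.

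Capillary genes included the largest single difference of the endothelial lists. Of 12, 4 fell and 0 rose between HFD and ND, where 9.59% of all genes were lower and 1.28% higher. The list's median log2 difference was -0.38, against -0.14 for all genes. Aqp7, a glycerol channel, had 3.68, 4.57 and 5.27 TPM in HFD libraries, against 19.87, 45.55 and 42.57 TPM in ND libraries, a log2 difference of -2.67 (SE 0.27, adjusted p = 0.000795, limma). The sHFD libraries had 67.05, 51.94 and 65.2 TPM, so HFD lay lowest as it did for Aplnr. Of all genes, 22.9% had HFD below ND without overlap, and 34.7% had HFD below sHFD. Tcf15, Meox2 and Car4 fell, with log2 differences of -0.96, -0.90 and -1.34 and adjusted p-values of 0.0121, 0.0283 and 0.0309 in limma. Tcf15 and Meox2 encode transcription factors of cardiac and muscle capillaries that govern fatty acid uptake, and Car4 encodes a carbonic anhydrase of the capillary surface.

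The arterial and tip-cell lists moved in both directions in HFD against sHFD, with 4 arterial genes higher and 3 lower, and 4 tip-cell genes higher and 2 lower. Of all genes tested, 10.3% were higher and 23.9% lower. Hey1, a Notch target, rose by 1.84 (adjusted p = 0.00264, limma), whereas Gja5 fell by 2.41 (adjusted p = 0.00151, limma). The tip-cell genes Igfbp3 and Adm rose by 1.25 and 0.87, with adjusted p-values of 0.00308 and 0.00271 in limma. Apln, itself a tip-cell gene, lay lower in HFD than in sHFD. All 12 immediate-early and heat-shock genes rose in that comparison, with a median of 1.79, and 0 of 12 were called between HFD and ND, where 4 had an unadjusted p under 0.05. Their part in these differences was not tested.

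**Figure D3:**
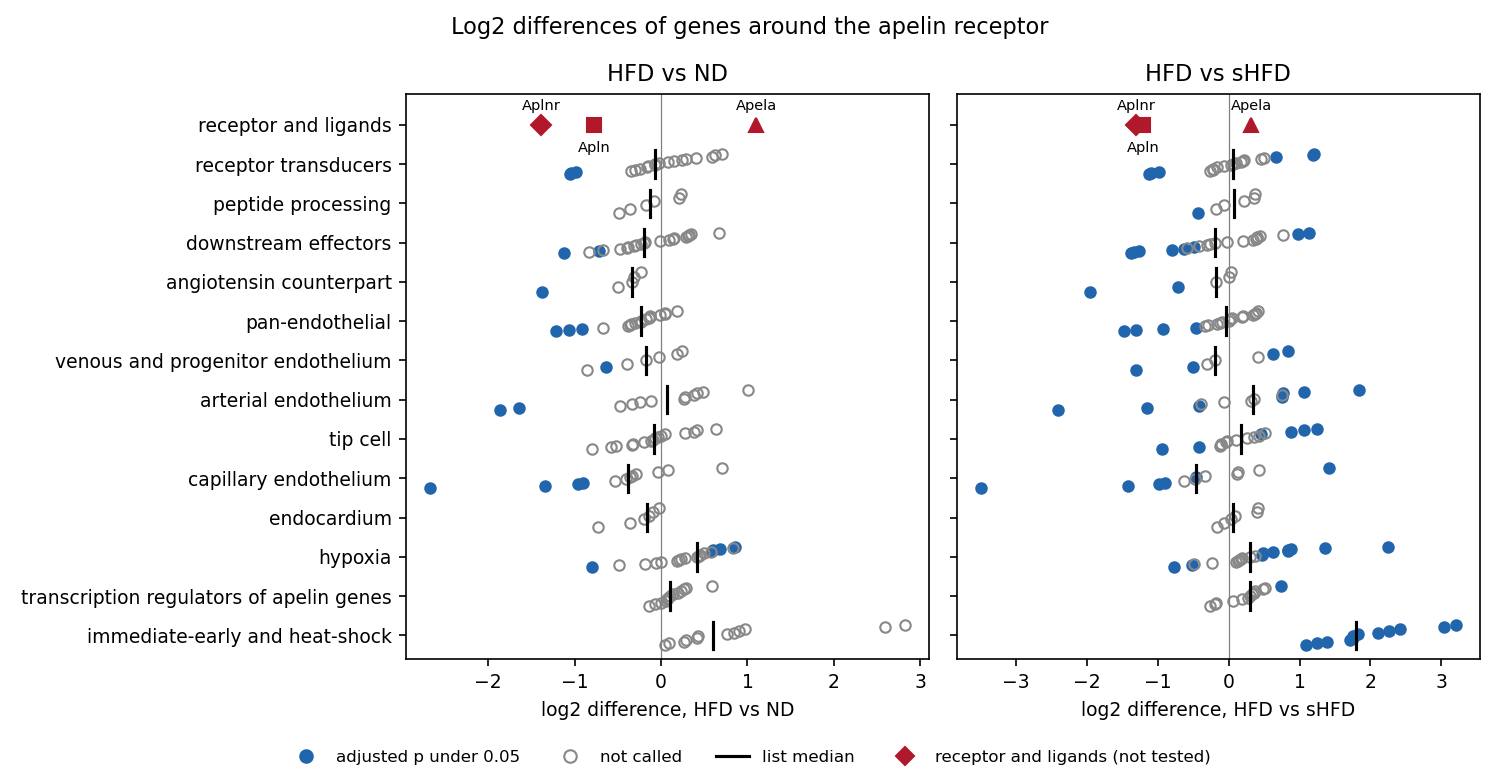
Log2(TPM + 1) differences of HFD against ND (left) and HFD against sHFD (right) for the receptor and ligands (red symbols, not tested) and for each gene of the lists around them (circles). Filled circles passed an adjusted p of 0.05 in limma, open circles did not, and black bars are list medians. In HFD against ND, Aplnr (-1.38) lies below the lowest gene of the pan-endothelial list (-1.22). The arterial and capillary lists reach lower than Aplnr (-1.86 and -2.67). Apela (1.10) lies above every gene of the hypoxia list (at most 0.86), while the immediate-early and heat-shock list reaches 2.83.

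Receptor signalling depends on G proteins, on arrestins that end or redirect the signal, and on RGS proteins that switch G proteins off. Of 19 such transducers, 3 fell between HFD and ND and 0 rose, against 9.59% of all genes lower and 1.28% higher. The count of 0 that rose depended on the processing. Median-ratio scaling gave 4 higher and 3 lower, and quantile normalization 1 higher and 3 lower. Without ND replicate 1 the fit gave 3 higher and 3 lower. Arrb1 and Arrb2 encode the β-arrestins. Arrb1 had 16.34, 15.36 and 23.73 TPM in HFD libraries and 29.7, 42.59 and 39.48 TPM in ND libraries, a log2 difference of -0.98 (SE 0.20, adjusted p = 0.0142, limma). Arrb2 had 12.09, 11.87 and 13.11 TPM in HFD libraries and 18.18, 29.79 and 35.26 TPM in ND libraries, a log2 difference of -1.06 (SE 0.22, adjusted p = 0.0147, limma). Rgs5, which brakes G protein signalling and is also a pericyte gene, fell by 1.04 (SE 0.24, adjusted p = 0.0195, limma). The inhibitory G protein genes were not called: Gnai2 differed by -0.34 (adjusted p = 0.140, limma) and Gnai1 by 0.15 (adjusted p = 0.662, limma).

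In the comparison of HFD with sHFD, 3 transducers rose and 3 fell, where 10.3% of all genes were higher and 23.9% lower. Arrb1 and Arrb2 fell, with log2 differences of -1.10 and -1.12 and adjusted p-values of 0.00238 and 0.00331 in limma, and Rgs5 fell by 0.99 (adjusted p = 0.00787, limma). The 3 that rose were Rgs2, another brake, by 1.20 (adjusted p = 0.00217, limma), Gna13 by 1.19 (adjusted p = 0.00259, limma) and the inhibitory subunit gene Gnai3 by 0.66 (adjusted p = 0.0146, limma).

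Markers of pericytes, smooth muscle and immune cells also differed between these diets, and arrestins are made in those cells too. Of 8 pericyte and smooth-muscle markers, 4 fell and 1 rose between HFD and ND, where 9.59% of all genes were lower and 1.28% higher. Kcnj8, a potassium channel of pericytes, fell by 1.28 (adjusted p = 0.00403, limma). The 8 markers summed to 1211 to 1445 TPM in HFD and 1120 to 1417 TPM in ND libraries. Acta2 was the largest part of that sum, at 1102.35, 1000.24 and 685.57 TPM in HFD and 616.8, 750.94 and 558.83 TPM in ND libraries. Acta2 and Cnn1 had log2 differences above 0, and the other 6 markers below 0, with a list median of -0.59. The mean log2(TPM + 1) of the 8 was 5.82 to 6.16 in HFD and 6.24 to 6.46 in ND libraries. Of 7 immune markers tested, 7 fell, the macrophage gene Csf1r among them by 1.41 (adjusted p = 0.00867, limma), and the summed level was 138 to 162 TPM in HFD and 280 to 372 TPM in ND libraries. None of the pericyte markers was at 0 in any library, and of the immune markers only the T cell gene Cd3e, which was not tested, was at 0 in any. The part of these cells in the receptor and arrestin differences was not tested.

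Further down the pathway, 2 of 21 effectors fell between HFD and ND and 0 rose, with a median of -0.20 against -0.14 for all genes. That is near the background, where 9.59% of all genes were lower and 1.28% higher. Nos3, the endothelial nitric oxide synthase, had 92.29, 79.1 and 87.47 TPM in HFD libraries and 155.63, 123.3 and 148.57 TPM in ND libraries, a log2 difference of -0.71 (SE 0.16, adjusted p = 0.0179, limma). Plcb3, a phospholipase C activated by G proteins, fell by 1.12 (SE 0.19, adjusted p = 0.00938, limma). Against sHFD, 6 fell and 2 rose in HFD, where 23.9% of all genes were lower and 10.3% higher. Nos3 and Plcb3 fell, with log2 differences of -0.80 and -1.27 and adjusted p-values of 0.0034 and 0.00132 in limma. The flow-induced transcription factor genes Klf2 and Klf4 rose by 1.13 and 0.98, with adjusted p-values of 0.0176 and 0.0367 in limma. These 2 calls held in 7 and 5 of 9 fits with 1 library left out. Between HFD and ND neither was called, with log2 differences of 0.15 and 0.32 (adjusted p = 0.789 and 0.553, limma).

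A close relative of the apelin receptor in sequence is the angiotensin type 1 receptor, which acts against it on vessel tone. Of 5 genes of the renin-angiotensin system tested, 1 fell between HFD and ND, where 9.59% of all genes were lower. This was Agtr1a, the receptor gene itself, at 2.29, 2.62 and 4.78 TPM in HFD libraries, against 6.11, 15.12 and 9.44 TPM in ND libraries (log2 difference -1.37, SE 0.30, adjusted p = 0.0168, limma). Agtr1a had 15.48, 16.89 and 12.79 TPM in sHFD libraries. HFD lay below both other diets without overlap for Agtr1a, as for Aplnr. Such separation was common: HFD lay below ND without overlap for 22.9% of all genes, and below sHFD for 34.7%. Agtr1a is also a gene of pericytes, whose markers are given with the transducers.

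Of the proteases that cut the peptides, 6 of 8 were tested and 0 were called between HFD and ND in limma, while 2 had an unadjusted p under 0.05. Furin, which can release mature apelin and ELABELA, had 193.8, 179 and 220.8 TPM in HFD libraries and 206.6, 152.7 and 149.4 TPM in ND libraries, a log2 difference of 0.23 (SE 0.17, adjusted p = 0.393, limma). The related convertase genes Pcsk5, Pcsk6 and Pcsk7 differed by -0.08, -0.49 and -0.17, with adjusted p-values of 0.816, 0.0645 and 0.555 in limma. Mme (neprilysin) and Prcp, whose enzymes degrade apelin, differed by 0.21 and -0.36, with adjusted p-values of 0.629 and 0.123 in limma. Klkb1 averaged 0.060 TPM over the 9 libraries and was not tested. Against sHFD, Pcsk6 fell by 0.44 in HFD (SE 0.16, adjusted p = 0.047, limma), a call that median-ratio scaling and quantile normalization ended and that held in 2 of 9 fits with 1 library left out (highest adjusted p = 0.150).

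Hypoxia is the best-known inducer of apelin. In HFD against ND, 4 of 19 hypoxia genes rose and 1 fell, with a list median of 0.41, where 1.28% of all genes were higher and 9.59% lower, while Apln was lower in HFD. Bnip3, a mitophagy receptor, had 97.19, 134.76 and 96.34 TPM in HFD libraries and 45.43, 69.26 and 65.86 TPM in ND libraries, a log2 difference of 0.86 (SE 0.20, adjusted p = 0.0199, limma). The glucose transporter gene Slc2a1 rose by 0.59 (SE 0.15, adjusted p = 0.0305, limma). The kinases of glucose use Pdk1 and Pgk1 rose by 0.60 and 0.68 (adjusted p = 0.0443 and 0.0449, limma), and Pfkfb4, a regulator of glycolysis, fell by 0.80 (adjusted p = 0.041, limma). The count of 5 was 0 without HFD replicate 1, without HFD replicate 2 or without ND replicate 3, and 0 when the ND and HFD libraries were fitted alone. In HFD against sHFD, 8 rose and 2 fell, where 10.3% of all genes were higher and 23.9% lower. The count of 10 was 5 without HFD replicate 2, sHFD replicate 2 or sHFD replicate 3.

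Of 13 factors and receptors named as regulators of the apelin genes, 0 were called between HFD and ND in limma, and 1 had an unadjusted p under 0.05. That gene was Igf1r, the receptor of insulin-like growth factor, at 0.58 (SE 0.18, adjusted p = 0.0587, limma). Hif1a, which encodes the oxygen-regulated factor that switches on Apln, differed by 0.28 (SE 0.22, adjusted p = 0.411, limma). Against sHFD, Igf1r rose in HFD by 0.74 (adjusted p = 0.00979, limma), the only call in the list.

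Since ELABELA has been placed in the epicardium, 5 epicardial markers were set beside Apela. Between HFD and ND 1 rose and 0 fell, where 1.28% of all genes were higher and 9.59% lower. The median log2 difference of the 5 was 0.56, against -0.14 for all genes. Upk1b, a uroplakin of mesothelium, had 42.96, 45.99 and 39.07 TPM in HFD libraries, against 22.79, 27.23 and 22.56 TPM in ND libraries (log2 difference 0.80, SE 0.23, adjusted p = 0.0443, limma). Upk3b and Msln, also mesothelial genes, differed by 0.70 and 0.56 (adjusted p = 0.0703 and 0.0805, limma), and Wt1 and Krt19 by 0.33 and 0.29 (adjusted p = 0.379 and 0.383, limma). The 5 markers summed to 403 to 449 TPM in HFD, 203 to 361 TPM in sHFD and 246 to 307 TPM in ND libraries, and none was at 0 in any library.

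Apela minus the mean log2(TPM + 1) of these 5 markers was -2.70 ± 0.14 in HFD, -2.54 ± 0.25 in sHFD and -3.26 ± 0.19 in ND (SD, n = 3 each). The difference was 0.56 between HFD and ND, against 1.10 for Apela alone. Between sHFD and ND it was 0.72, against 0.78 for Apela alone, and the marker mean itself differed by 0.06. Within sHFD, replicate 3 had the highest Apela (10.64 TPM) and also the highest Upk3b (117.97 TPM), and replicate 1 the lowest of both (5.52 and 60.13 TPM). Replicate 1 was lowest for all 5 markers and replicate 3 highest for 4 of the 5, while Wt1 was highest in replicate 2, at 23.66, 40.59 and 30.21 TPM in sHFD libraries 1 to 3. The part of epicardial cells in the Apela difference was not tested.

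Between sHFD and ND, 1 of the 13655 genes was called in limma (0.00732%), and 1005 had an unadjusted p under 0.05. None of the genes in the 13 lists around the receptor was called there, though 10 of 12 genes of the immediate-early and heat-shock list had an unadjusted p under 0.05, with lower levels in sHFD. Apela is the one of the 3 genes whose sHFD libraries all lay outside the ND range. Of the 13655 genes, 9.4% had no overlap between sHFD and ND, 4.5% with sHFD above.

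Genes averaging 5 TPM or more were ranked by the Pearson correlation of their log2(TPM + 1) with each of the 3 genes over the 9 libraries, which are grouped by diet and share that grouping. The 8 nearest to Aplnr were Cyren, Car3, Tppp3, Tmem255b, Pkn3, Ucp2, Stap2 and Hsd3b7, with r between 0.978 and 0.985 and Spearman's rho between 0.683 and 0.933. Car3 encodes a carbonic anhydrase abundant in fat and muscle, Ucp2 a carrier of the inner mitochondrial membrane, and Hsd3b7 an enzyme of bile acid synthesis. Without HFD replicates 1 and 3, the libraries farthest from the median of Aplnr, r was 0.960 to 0.977. All 8 had their lowest levels in HFD, as the map of standardised levels shows.

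The 8 nearest to Apln were Lamb1, Trim37, Gga3, Ap3m2, Tnfaip1, Snx25, Cdk16 and Copg1, with r between 0.947 and 0.981. Lamb1, a laminin chain of basement membranes, was highest in the same library as Apln, at 537.87 TPM in sHFD replicate 2, and ran between 374.09 and 446.96 TPM elsewhere. That library was the highest for all 8 genes. Without sHFD replicate 2 and HFD replicate 1, r was 0.827 to 0.956. When each library was expressed as its deviation from the diet mean, Lamb1 (r = 0.984) and Grk6 (r = 0.980), a kinase that prepares receptors for arrestin binding, stood nearest to Apln, ahead of Arl4c, Scamp5 and Rassf2. Grk6 too was highest in sHFD replicate 2, at 64.82 TPM. Without that library and HFD replicate 1, the levels of these genes correlated with Apln at 0.365 (Arl4c) to 0.964 (Rassf2), and Grk6 at 0.773.

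Genes near Apela by the same measure were Ncam1, Cdh3, Ppat, Tsr1, Ccdc115, Krt8 and Kif21a, with r between 0.847 and 0.907. Cdh3 and Ncam1 are adhesion molecules, and Krt8 is a keratin of simple epithelia. Without ND replicates 3 and 1, r was 0.619 to 0.872, so part of the likeness rests on these libraries. By deviations from the diet means, Zim1 (r = 0.958), Tmem251, Mrpl39, the epicardial marker Upk3b (r = 0.886) and Bmp10 (r = 0.881), a growth factor of the heart, stood nearest. Without ND replicates 3 and 1, the levels of these genes correlated with Apela at 0.534 to 0.801. For Aplnr the genes nearest by deviations were Slc39a3, Twf2, Nmral1, Toe1 and Aarsd1, with r between 0.926 and 0.962. Without HFD replicates 1 and 3, their levels correlated with Aplnr at 0.215 to 0.834.

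**Figure D4:**
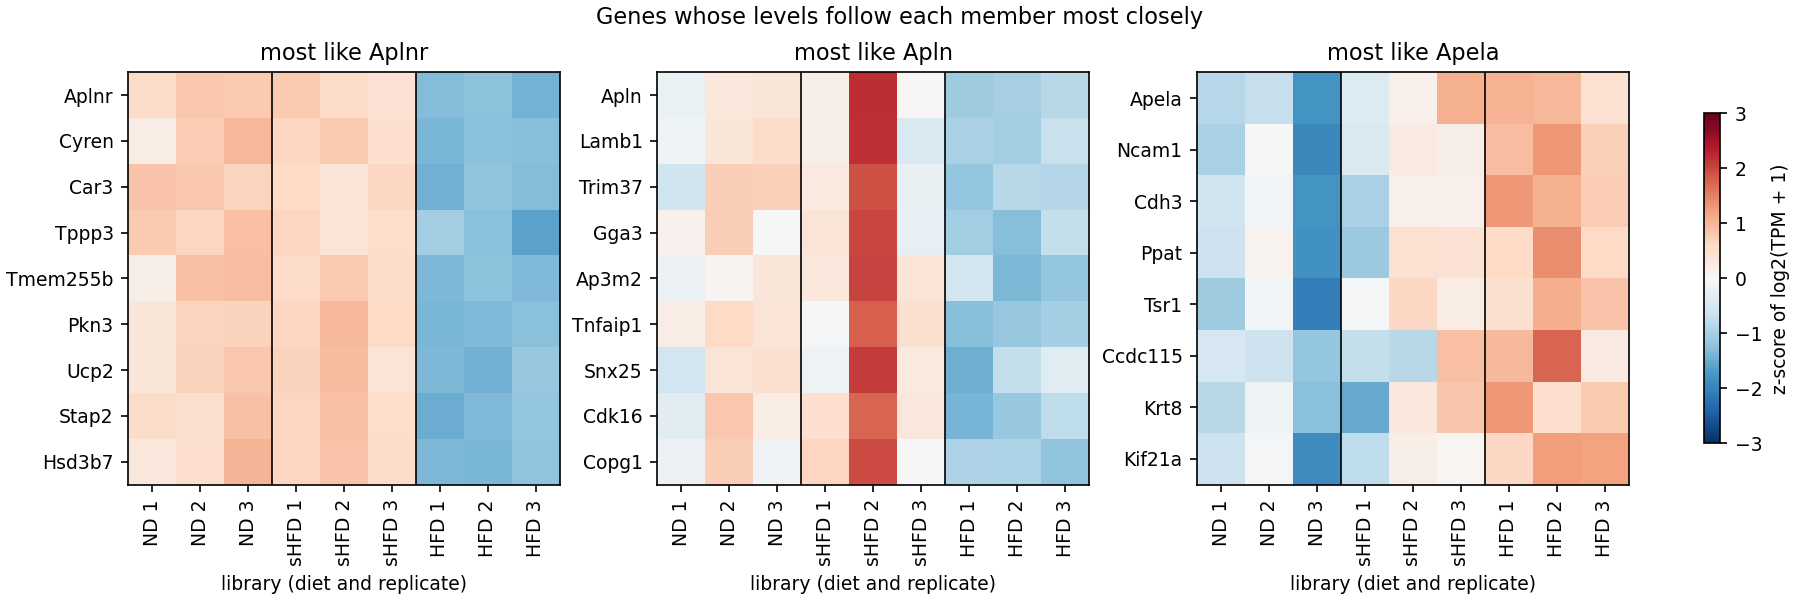
Standardised levels (z-score of log2(TPM + 1) over the 9 libraries, colour) of each of the 3 genes and of the genes most correlated with it (rows, 8 for Aplnr and Apln, 7 for Apela), by library (columns, in order of diet). The genes near Aplnr are low in all HFD libraries, those near Apln peak in sHFD replicate 2, and those near Apela are lowest in ND replicate 3, except Krt8, lowest in sHFD replicate 1.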

How the data were processed

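RNA-seq libraries of 9 samples, 3 per maternal diet, were taken as 1 deposited table of TPM values for 18738 genes. The authors made the TPM values, and RSEM 1.3.1 and the build GRCm38 are named, with no role, per the submitters' processing notes. Messenger RNA was isolated before library construction, per the labels' protocols. For the aligner, the annotation and the use of strand, the entry is: not given in the sources used here. TPM keeps no read counts, so depth and the precision it gives are unknown. Columns named CON, MID and HIGH were read as ND, sHFD and HFD.

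Values were taken as log2(TPM + 1), which understates the change of low genes. The 13655 genes averaging 1 TPM or more were fitted to the 3 diets over all 9 libraries in limma 3.58.1 (R 4.3.3), with a variance trend and 6 residual degrees of freedom. Two-sided p-values received the Benjamini-Hochberg adjustment, with a threshold of 0.05. The fit was checked on simulated data. With 3 libraries per diet, the smallest two-sided p of an exact permutation test is 0.1, and none was run.

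The 3 genes and the 13 pathway and 9 marker lists were chosen with earlier results of these data known. From each pathway list the text names the 3 genes with the smallest p in HFD against ND and the 2 in HFD against sHFD where they add to the account, and the proteases; the 8 and 5 most correlated genes were set by rank. Many of the genes that these rules name are not reported here. Gnai1, Gnai2, Gnai3, Gna13, Klf2, Klf4, Pdk1, Pgk1, Car4, Pecam1, Cdh5 and the single markers were named after their values were seen. The symbol Ero1a was not matched, so 19 of 20 hypoxia genes were used. Gene positions come from GENCODE and promoters from RefSeq GRCm38.p6. Alternatives covered the pseudocount, the filter, scaling, the variance trend, 2 diets only, a replicate block and each library left out.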

Additional observations from a re-analysis of the deposited data

How the results depend on the processing

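For Aplnr, the difference between HFD and ND was -1.44 to -1.35 with 1 library left out and -1.23 with median-ratio scaling, and between HFD and sHFD it was -1.36 to -1.25 and -1.15. Relative to endothelial RNA it was -1.18 to -0.91 and -1.19 to -1.05 with 1 library left out, and -0.80 and -0.76 against the capillary list. Between sHFD and ND that relative value was 0.08, but -0.040 against the capillary list and -0.051 to 0.22 with 1 library left out, below 0 without ND replicate 1. For Apln, HFD against ND gave -0.90 to -0.70, HFD against sHFD -1.48 to -0.73, and sHFD against ND -0.041 to 0.70, below 0 without sHFD replicate 2. For Apela, HFD against ND gave 0.91 to 1.22, and 1.39 with quantile normalization, sHFD against ND 0.56 to 0.98, and HFD against sHFD 0.12 to 0.54. All 3 genes otherwise kept their direction under the alternatives run.

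Genes called between HFD and ND numbered 1484, but 456 with 2 diets only, 763 with no filter and 31 to 3837 with 1 library left out. Median-ratio scaling gave 668 higher and 996 lower, and quantile normalization 440 and 671, against 175 and 1309. Between HFD and sHFD these scalings gave 2597 higher and 2622 lower, and 2396 and 2444, against 1406 and 3259, and leaving out 1 library gave 2693 to 5461 calls. Between sHFD and ND the count of 1 became 2 with 2 diets only, 0 with the 5 TPM filter, no filter, a pseudocount of 0.1 or the block, and 0 to 358 with 1 library left out. Hypoxia genes called between HFD and ND numbered 0 with 2 diets only, 2 with no filter, 3 with no variance trend or quantile normalization and 0 to 9 with 1 library left out. Hypoxia calls between HFD and sHFD were 5 to 11, and between sHFD and ND 0 to 1. Pan-endothelial calls between HFD and ND were 0 to 4, and receptor transducers 0 to 6, or 7 with median-ratio scaling (4 higher and 3 lower). Npr3 between HFD and ND gave -0.42 to 0.070, above 0 without ND replicate 2. Causes were not tested.

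The labels number replicates 1 to 3 in each diet. Deviations of same-numbered libraries correlated at -0.287 to 0.246 for HFD and ND, at 0.013 to 0.160 for sHFD and ND, and at -0.097 to 0.413 for HFD and sHFD. Since not every pair was above 0.1, the number was not taken to pair them. With a replicate block 1686, 0 and 4722 genes were called (HFD against ND, sHFD against ND, HFD against sHFD). The number of libraries limits precision, and depth is unknown.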
